A study of Mus musculus with 8 samples.

Results

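The 28 genes described here build cholesterol, move it or dispose of it inside the cell, limit its uptake, or set how much of it is made. They were picked by gene symbol from the 43472 symbols listed for each library, of which 22095 had at least 1 count, and all 28 were found. By role they are 18 enzymes of synthesis, 5 genes of the SREBP system (SREBPs are the sterol regulatory element binding proteins), 3 genes of transport, turnover and uptake, and 2 liver X receptors (LXR). Messenger RNA of the neural retina was counted in 4 Mfp2-/- mice and in 4 control mice, of which 3 were Mfp2+/+ and 1, control replicate 2, was Mfp2+/-. All mice were C57BL/6J and were studied at 3 weeks (postnatal day 21), and each library holds the pooled retinas of 1 mouse. Mfp2-/- mice lack peroxisomal multifunctional protein 2, an enzyme of peroxisomal β-oxidation encoded by Hsd17b4. The gene is inactivated in the whole body, the mutants were bred from heterozygous parents, and effects arising within the retina and outside it cannot be told apart in this design.

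Cholesterol is assembled from acetyl-CoA through mevalonate, isoprenoid units, squalene and lanosterol, and the later enzymes trim lanosterol to cholesterol. When membranes of the endoplasmic reticulum are short of sterol, SCAP escorts the SREBPs to the Golgi, where they are cleaved into active transcription factors, while INSIG proteins hold SCAP back when sterol is plentiful. The product of Srebf2 mainly drives genes of cholesterol synthesis and that of Srebf1 mainly genes of fatty acid synthesis, whereas LXRs are switched on by oxysterols and drive cholesterol export as well as Srebf1. Retinal cells both make cholesterol and take it up from lipoproteins, and photoreceptors consume it for their outer segment membranes.

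The libraries held 1895485 to 2826553 counts in genes for Mfp2-/- mice and 2340974 to 3226187 for control mice. Hsd17b4 had 1, 0, 1 and 0 counts in Mfp2-/- replicates 1 to 4, against 47, 20, 78 and 37 in control replicates 1 to 4. Every library thus matched its label as Mfp2-/- or control. Whether a control was Mfp2+/+ or Mfp2+/- cannot be settled from these counts. Marker genes of neural retina were present in both groups, at different levels. The summed level of 11 rod markers was 1404 to 1859 CPM (counts scaled to a common library size with TMM factors, which rest on genes of middling change) in Mfp2-/- retinas, against 29861 to 34055 CPM in control retinas, and all 11 fell. All 9 tested microglia and macrophage markers rose, with sums over the 10 listed of 355 to 485 CPM in Mfp2-/- and 62.0 to 76.3 CPM in control retinas. Of 9 Müller glia markers 6 rose and 0 fell, but their sums overlapped (3132 to 4592 CPM in Mfp2-/-, 3078 to 3854 CPM in control retinas). Glul, the most abundant of them, had a log2 fold change of -0.52 (edgeR adjusted p = 0.11). Over all 12516 tested genes 13.8% were higher and 13.2% lower. In bulk tissue, fewer cells of a type and less RNA per cell cannot be told apart, and the part that this change of mix plays in the results below was not tested. Levels of 27 members passed the filter on low counts, with 12 to 629 counts per library and mean levels of 7.88 CPM (Tm7sf2) to 183 CPM (Hmgcs1).

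Among the cholesterol genes 3 regulators and 1 enzyme were higher in Mfp2-/- retinas, and the other 23 tested members did not pass the test. Of the 27 tested members, 4 were higher and 0 were lower (Insig1, Srebf1, Srebf2 and Hmgcs1; edgeR, adjusted p under 0.05 over 12516 genes). That is 14.8% of the members called, against 27% of all tested genes, with 13.8% of all tested genes higher and 13.2% lower, so the share of members called was below that of the retina as a whole and the share called higher was close to it. At an unadjusted p under 0.05 in edgeR there were 9 higher members and 1 lower member, Scap, of the 27 tested. At that cut 4999 of the 12516 tested genes passed, 2563 higher and 2436 lower. Neither DESeq2 nor limma-voom called a member lower. Fold changes of 24 members were above 0 and of 3 below on the log2 scale, whether or not they passed, where 6229 of the 12516 tested genes were above 0. The median log2 fold change of the members was 0.31, against -0.0039 over all genes. It was 0.20 without Mfp2-/- replicates 2 and 3, with 21 members above 0, and 0.46 without Mfp2-/- replicate 1. With total counts as the scale the medians were 0.43 for the members and 0.12 for all genes, a shift that any change of scale gives to all genes alike. On that scale 8 members were called, all higher, where 29.7% of all tested genes were called, and 65.2% of those calls over all genes were upward, against 51.2% with TMM factors. In 5 members every Mfp2-/- library lay above every control library (the 4 that rose and Stard4) and in 0 members below, against 15.1% and 15.8% of all tested genes (30.9% in either direction).

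**Figure D1:**
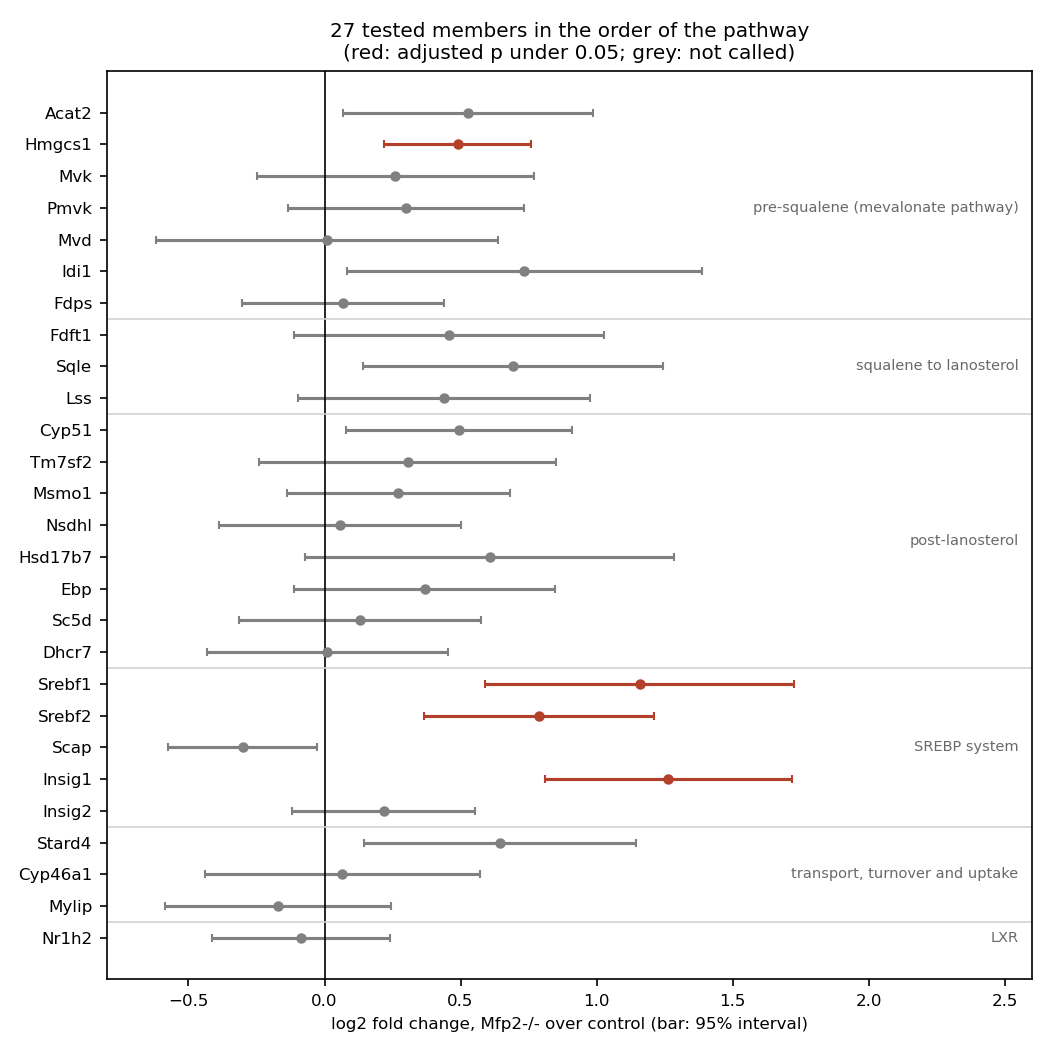
Log2 fold change of each tested member, Mfp2-/- over control, with its 95% interval, from the first enzymes at the top to the LXR at the bottom. The 3 largest increases belong to Insig1 (1.26), Srebf1 (1.16) and Srebf2 (0.79), all 18 enzymes of synthesis sit at or above 0, and only Scap has an interval wholly below 0.

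The 3 largest fold changes of the members were in the SREBP system, where 3 of 5 genes rose, against 13.8% of all tested genes higher. The group is small, and the members were chosen with earlier results of these data known. Insig1, whose protein retains SCAP in the endoplasmic reticulum and which is itself a target of the SREBPs, had 19.5, 27.4, 30.3 and 22.4 CPM in Mfp2-/- replicates 1 to 4, against 11.3, 12.2, 9.03 and 9.06 CPM in control replicates 1 to 4. The groups did not overlap, and the lowest mutant level, in replicate 1, was still above the highest control. The log2 fold change was 1.26 (SE 0.21, 95% interval 0.81 to 1.72, edgeR adjusted p = 0.0012), or 2.40-fold, and the adjusted p was at most 0.0064 when any 1 library was left out. Insig2, the second retention protein, which is not induced by SREBP in the same way, had 36.1, 32, 32.9 and 27.6 CPM in Mfp2-/- and 23.3, 26.7, 31.3 and 29.3 CPM in control replicates. Its levels overlapped, and its log2 fold change of 0.22 (95% interval -0.12 to 0.55, edgeR adjusted p = 0.32) missed the threshold. The ratio of Insig1 to Insig2 counts was 0.539, 0.857, 0.918 and 0.813 in Mfp2-/- replicates, against 0.484, 0.458, 0.289 and 0.310 in control replicates, higher in each mutant than in each control.

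Srebf1, which encodes the SREBP that mainly serves fatty acid synthesis, had 28.7, 52.3, 46.7 and 31.6 CPM in Mfp2-/- replicates 1 to 4, against 13.1, 15.4, 16.8 and 25.4 CPM in control replicates 1 to 4. All mutants lay above all controls, mutant replicates 2 and 3 stood highest, and control replicate 4 came nearest to the mutants. The log2 fold change was 1.16 (SE 0.26, 95% interval 0.59 to 1.73, edgeR adjusted p = 0.0076). Srebf1 has more than 1 promoter, and counts per gene from 3′ reads do not separate the isoforms they give. It also shares 109 exon bases with Rai1 on the opposite strand, and the sources used here do not say whether counting used strand, so reads of these genes cannot be told apart there. Rai1 itself had 32.9 to 39.6 CPM in Mfp2-/- and 28.1 to 31.0 CPM in control libraries, a log2 fold change of 0.32 (edgeR adjusted p = 0.089).

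Srebf2, encoding the main driver of the cholesterol genes, had 54.5, 99.1, 67.2 and 63.2 CPM in Mfp2-/- replicates, against 45.5, 41.2, 42.9 and 34.1 CPM in control replicates. Again no levels overlapped, but replicate 2 stood far above the other mutants. The log2 fold change of 0.79 (SE 0.19, 95% interval 0.37 to 1.21, edgeR adjusted p = 0.012) kept an adjusted p of at most 0.042 when any 1 library was left out. Scap, the escort of both SREBPs, was the only gene of the system with a negative fold change. It had 66.9, 79.3, 66.6 and 64.4 CPM in Mfp2-/- and 78.6, 89.1, 91.6 and 81.5 CPM in control replicates, and the groups overlapped only through mutant replicate 2. The log2 fold change of -0.30 (95% interval -0.57 to -0.03, edgeR adjusted p = 0.095) missed the threshold with all libraries and passed it without Mfp2-/- replicate 2 (-0.37, adjusted p = 0.038).

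**Figure D2:**
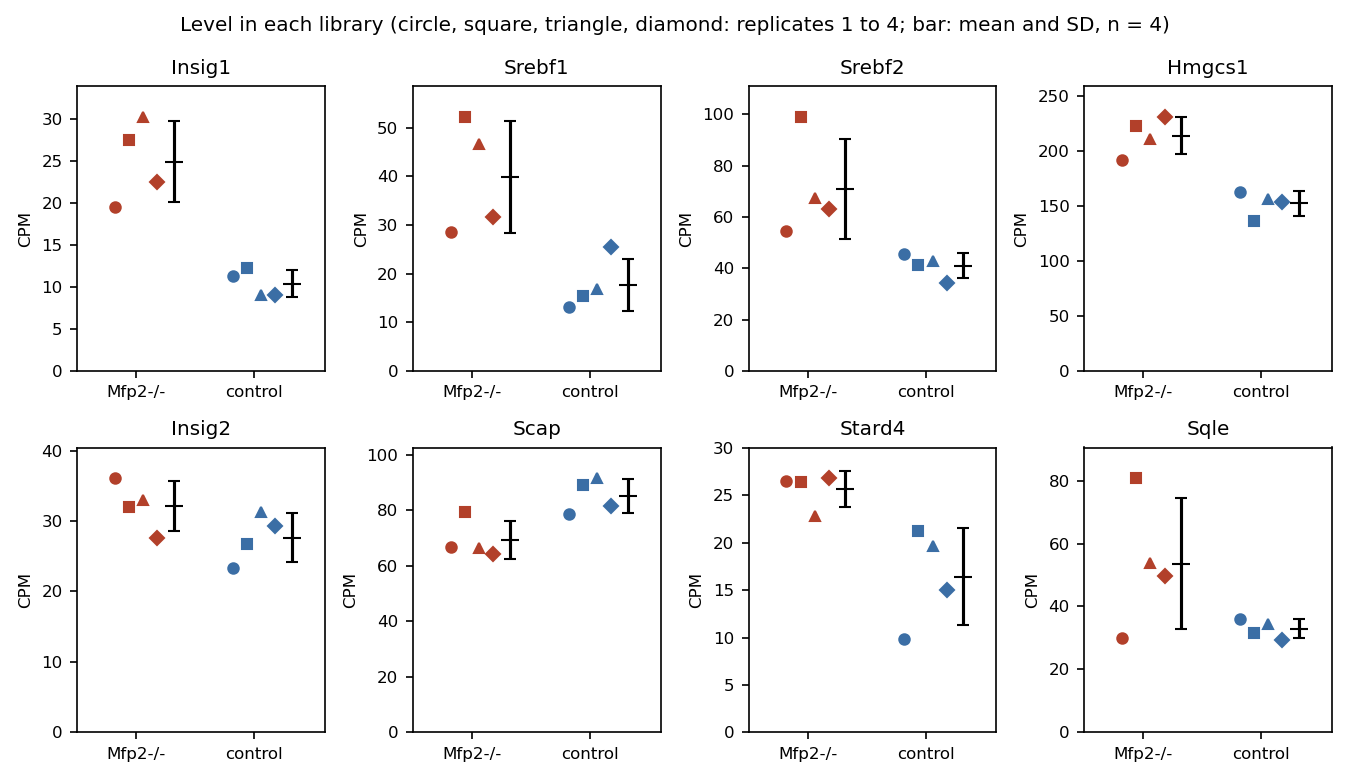
Levels in CPM of 8 members in each library, with Mfp2-/- to the left of control and bars for the mean and SD of 4 libraries. Insig1, Srebf1, Srebf2, Hmgcs1 and Stard4 show no overlap between groups, Scap runs the other way, and Sqle shows how far Mfp2-/- replicate 1 (30.1 CPM) can lie from replicate 2 (80.8 CPM).

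The promoters of 3 of the 4 genes that rose are shown because the SREBPs act through short DNA motifs close to the start of transcription. Capitals mark matches to the sterol regulatory element CACNCCAC or to the CCAAT box bound by NF-Y, a factor that works beside the SREBPs, on either strand (on the minus strand the box reads ATTGG). The stretches come from RefSeq on GRCm38.p6, run 5′ to 3′ along the gene, and all lie on the plus strand, at chr13:119690171-119690350 for Hmgcs1, chr15:82147089-82147180 for Srebf2 and chr5:28071382-28071411 for Insig1.
Hmgcs1: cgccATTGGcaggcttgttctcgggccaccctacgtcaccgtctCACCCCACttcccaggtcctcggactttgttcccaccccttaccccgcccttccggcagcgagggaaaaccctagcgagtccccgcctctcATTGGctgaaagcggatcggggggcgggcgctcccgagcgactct
Srebf2: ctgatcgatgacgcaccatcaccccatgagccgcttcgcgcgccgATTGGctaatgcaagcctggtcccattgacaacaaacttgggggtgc
Insig1: gggcgcggtacgtgtagtgtcGTGGCGTGt
In Hmgcs1 the sterol element began 136 bases before the RefSeq start, between CCAAT boxes that began at 176 and 45 bases before it. In Insig1 the element lay on the minus strand, its first base 9 bases before the RefSeq start and inside the first exon of the GENCODE gene (chr5:28071363-28078662), and in Srebf2 a CCAAT box lay 135 bases before the start.

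Over the RefSeq windows (250 bases before to 50 after a start), 24 of the 28 members had an entry. The sterol element was found in 3 of 24 members, Hmgcs1, Insig1 and Acat2, or 12.5%, against 7.12% of 27025 genes. Only the exact pattern CACNCCAC was searched, so elements that depart from it were not counted. The CCAAT box was found in 20 of 24, or 83.3%, against 41.1% of genes. A repeat of GGTCA with 4 bases between its copies was found in 0 of 24 and in 0.0518% of genes. This string does not have the spacing of the LXR element, so members that hold an LXR element were not counted. Among members that rose, 2 of 4 held the sterol element and 4 of 4 the CCAAT box, and among the other 20 members 1 held the element and 16 the box. These matches describe letters in the windows and are not evidence of binding.

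The early enzymes, from acetyl-CoA to farnesyl diphosphate, had a median log2 fold change of 0.30 over 7 genes, and 1 of them rose. That was Hmgcs1, the cytosolic synthase that makes HMG-CoA and a classical SREBP target. It had 191, 223, 211 and 231 CPM in Mfp2-/- replicates 1 to 4, against 163, 137, 156 and 154 CPM in control replicates 1 to 4, with no overlap. Hmgcs1 stood at 214 ± 17.2 CPM in Mfp2-/- and 152 ± 11.3 CPM in control retinas (SD, n = 4 each), a log2 fold change of 0.49 (SE 0.12, 95% interval 0.22 to 0.76, edgeR adjusted p = 0.014). Leaving out control replicate 2, the Mfp2+/- mouse and the lowest control, gave 0.43 with an adjusted p of 0.054, so the call was lost. In that fit 19.3% of all tested genes were called, against 27% with all libraries. The call held without any other single library.

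Acat2, the cytosolic thiolase that opens the pathway, had 28.3 to 44.2 CPM in Mfp2-/- and 17.4 to 29.5 CPM in control libraries, and only mutant replicate 1 fell within the control range. Its log2 fold change was 0.53 (95% interval 0.07 to 0.99, edgeR adjusted p = 0.083), and reads of the near-identical Acat3 may be split between the genes. Idi1, the isomerase of isopentenyl diphosphate, had the largest estimate of the 18 enzymes at 0.73, but an interval of 0.08 to 1.39 and levels of only 6.72, 7.11, 13.8 and 12.1 CPM in Mfp2-/- and 5.46, 5.43, 6.13 and 6.97 CPM in control replicates. Mutant replicates 3 and 4 carried this difference, and the adjusted p was 0.090. Mevalonate is phosphorylated by the products of Mvk and Pmvk, whose log2 fold changes were 0.26 and 0.30 with intervals that included 0. Mvd, the decarboxylase of the same chain, and Fdps, the synthase of farnesyl diphosphate, were at 0.01 (95% interval -0.62 to 0.64) and 0.07 (95% interval -0.30 to 0.44).

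The 3 enzymes that turn farnesyl diphosphate into lanosterol had the largest median of the enzyme groups, 0.46, and 0 of the 3 passed the test in edgeR (1 at an unadjusted p under 0.05). Sqle, the squalene epoxidase and a rate-limiting step, had 30.1, 80.8, 53.8 and 49.6 CPM in Mfp2-/- replicates 1 to 4, against 36.0, 31.7, 34.5 and 29.3 CPM in control replicates 1 to 4. Replicates 2 to 4 of the mutants lay above every control and replicate 1 lay among the controls. The log2 fold change of 0.69 (SE 0.25, 95% interval 0.14 to 1.25, edgeR adjusted p = 0.063) passed without Mfp2-/- replicate 1 (0.92, adjusted p = 0.0084) and in DESeq2 with all libraries (0.71, adjusted p = 0.048), but not in limma-voom. Fdft1, the squalene synthase, showed the same order of mutants, with 14.5, 33.5, 27.2 and 22.8 CPM in Mfp2-/- and 14.9, 16.3, 23.2 and 16.0 CPM in control replicates, and a log2 fold change of 0.46 (adjusted p = 0.21). Fdft1 shares 774 exon bases on opposite strands with Ctsb, which had 4611 counts against 445 for Fdft1, and these reads cannot be told apart without strand. Lss, the lanosterol synthase, differed in pattern, since its highest mutant was replicate 4 at 48.2 CPM and its highest control was replicate 2 at 30.3 CPM, with a log2 fold change of 0.44 (adjusted p = 0.20).

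After lanosterol, all 8 enzymes had fold changes above 0, with a median of 0.29, and 0 of 8 passed the test in edgeR, DESeq2 or limma-voom (1 at an unadjusted p under 0.05). Cyp51, the lanosterol demethylase, came nearest, with 49.2, 86.9, 56.8 and 69.5 CPM in Mfp2-/- replicates 1 to 4 and 39.7, 48.9, 53.9 and 42.8 CPM in control replicates 1 to 4. Only mutant replicate 1 fell below the highest control, and the log2 fold change was 0.50 (SE 0.19, edgeR adjusted p = 0.074). Cyp51 shares 166 exon bases with Akap9 on the opposite strand, which had 7296 counts against 1175. Hsd17b7, a ketosteroid reductase of the demethylation steps, had 7.08 CPM in Mfp2-/- replicate 1, below all controls (8.60 to 11.5 CPM), and 18.2 to 20.8 CPM in the other 3 mutants, above all of them. Its log2 fold change was 0.61 with all libraries (adjusted p = 0.17) and 0.89 without replicate 1 (adjusted p = 0.011).

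The remaining post-lanosterol enzymes moved less. Ebp, the sterol isomerase, had a log2 fold change of 0.37, drawn up by mutant replicate 2 at 72.2 CPM, where the other mutants had 34.9 to 44.0 CPM and the controls 32.4 to 41.0 CPM. Tm7sf2, a sterol reductase, was at 0.31 and Msmo1, the methylsterol monooxygenase, at 0.27, and neither passed the test. For Tm7sf2 the overlapping Vps51 on the same strand adds an uncertainty, with 68 counts against 167. The last 3 were near 0, with Sc5d, the lathosterol desaturase, at 0.13, Nsdhl, a demethylating dehydrogenase, at 0.06, and Dhcr7, the 7-dehydrocholesterol reductase, at 0.01. The interval of Dhcr7, -0.43 to 0.45, is wide enough to hold the estimate for Ebp (0.37), so a shift of that size was not detectable. Dhcr7 had 16.3, 27.9, 23.5 and 29.1 CPM in Mfp2-/- and 26.2, 21.3, 26.4 and 21.6 CPM in control replicates.

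Summed over the 18 enzymes, the level was 598, 917, 745 and 790 CPM in Mfp2-/- replicates 1 to 4, against 582, 569, 615 and 562 CPM in control replicates 1 to 4. Replicates 2 to 4 of the mutants lay above all controls, and replicate 1 lay inside the control range. The ratio of the means was 1.31, given as a description with no test. Hmgcs1 alone contributed 191 to 231 of these CPM in the mutants and 137 to 163 CPM in the controls. The spread between mutants was wider than between controls, 762 ± 132 CPM against 582 ± 23.6 CPM (SD, n = 4 each).

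**Figure D3:**
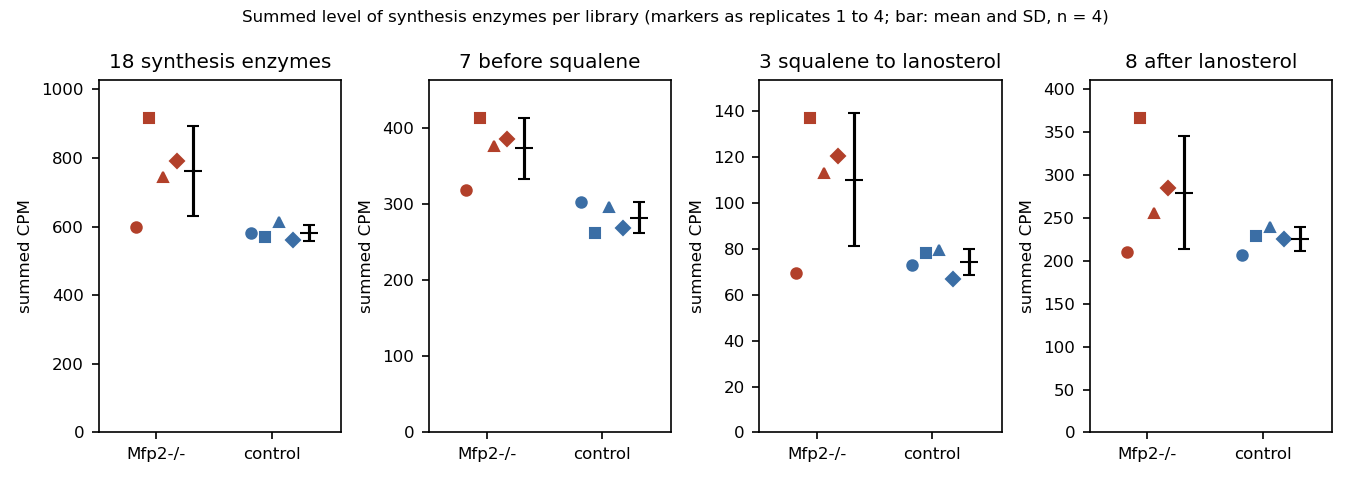
Summed level in CPM of all 18 synthesis enzymes and of the 7 early, 3 middle and 8 late enzymes in each library, Mfp2-/- left of control, with the mean and SD of 4 libraries. In the first panel Mfp2-/- replicate 1 (598 CPM) sits among the control libraries (562 to 615 CPM), while the other mutants reach 745 to 917 CPM.

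Among the 3 genes of transport, turnover and uptake, 0 passed the test in edgeR (1 at an unadjusted p under 0.05). Stard4, a carrier of cholesterol between membranes that is also induced by SREBP, had 26.5, 26.4, 22.9 and 26.8 CPM in Mfp2-/- replicates 1 to 4, against 9.83, 21.3, 19.7 and 15.0 CPM in control replicates 1 to 4. All mutants lay above all controls, and unlike most members Stard4 was as high in mutant replicate 1 as in replicates 2 and 4. The log2 fold change was 0.65 (SE 0.23, 95% interval 0.15 to 1.14, edgeR adjusted p = 0.056), and limma-voom gave 0.70 with an adjusted p of 0.043, so that the call depended on the tool. Cyp46a1, the neuronal 24-hydroxylase that removes cholesterol, had 10.7 to 13.4 CPM in Mfp2-/- and 8.39 to 15.3 CPM in control libraries. Its log2 fold change was 0.07 (95% interval -0.44 to 0.57). Mylip, an LXR-induced ubiquitin ligase that limits lipoprotein receptors, had 20.5 to 26.8 CPM in Mfp2-/- and 23.1 to 37.3 CPM in control libraries, with a log2 fold change of -0.17 (95% interval -0.59 to 0.24). Control replicate 4 stood apart as the highest library.

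The LXRs themselves showed no change that passed the test. Nr1h2, which encodes the widely expressed LXRβ, had 28, 35.6, 34.3 and 32 CPM in Mfp2-/- replicates 1 to 4, against 39.3, 36.6, 32.3 and 29.6 CPM in control replicates 1 to 4. The ranges lay over each other, with a log2 fold change of -0.09 (95% interval -0.41 to 0.24, edgeR adjusted p = 0.70) that turned to 0.04 with total counts as the scale. Nr1h3, encoding LXRα, did not pass the filter on low counts, at 7, 10, 1 and 7 counts in Mfp2-/- and 6, 4, 11 and 5 counts in control libraries. It was tested only in the run without that filter, where it was not called. A small difference in Nr1h3 could be missed at this depth.

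The order of the mutants varied between members, with replicate 2 most often highest and replicate 1 most often lowest. Mfp2-/- replicate 2 was the highest of the 4 mutants in 15 of the 27 tested members and replicate 1 the lowest in 19. Replicate 4 was the highest in 7 members, replicate 1 in 3 and replicate 3 in 2. The order was not counted over all tested genes. Some library properties set replicate 2 apart. Replicates 1 and 4, with enzyme sums of 598 and 790 CPM, were alike in reads outside genes and differed in the sum of lens markers (1639 and 275 CPM). Reads that fell outside genes made up 10.8% of all reads in Mfp2-/- replicate 2 and 15.7% in replicate 3, against 27.5% and 28% in Mfp2-/- replicates 1 and 4 and 22.6% to 29.9% in control libraries. Replicate 2 also had the highest sums of lens markers (5129 CPM, where the other mutants had 275 to 2883 CPM and the controls 263 to 1125 CPM), retinal pigment epithelium markers (504 CPM against 181 to 357 CPM in controls) and oligodendrocyte markers (178 CPM against 47.0 to 73.2 CPM in controls, with Mog at 1 count in the mutants together and at 0 in all controls). The lowest mutant was replicate 4 for lens markers and replicate 3 for pigment epithelium markers (284 CPM). The part of these in the levels of replicate 2 and in the order of the mutants was not tested.

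Without Mfp2-/- replicates 2 and 3, the 4 genes that rose still passed the test and Scap passed it as lower, so 5 of 27 members were called, where 26% of 13044 tested genes were. The log2 fold changes were then 1.01 for Insig1 (edgeR adjusted p = 0.0063), 0.76 for Srebf1 (adjusted p = 0.033), 0.52 for Srebf2 (adjusted p = 0.028) and 0.47 for Hmgcs1 (adjusted p = 0.017), and Scap was at -0.38 (adjusted p = 0.049). With Mfp2-/- replicates 1 and 4 left out in their place, a choice made after the values were seen, 10 members were called, each of them higher, where 39.5% of 13074 tested genes were called. Acat2, Fdft1, Sqle, Cyp51, Hsd17b7 and Ebp joined the 4 in that fit. Both fits used the same 4 controls.

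**Figure D4:**
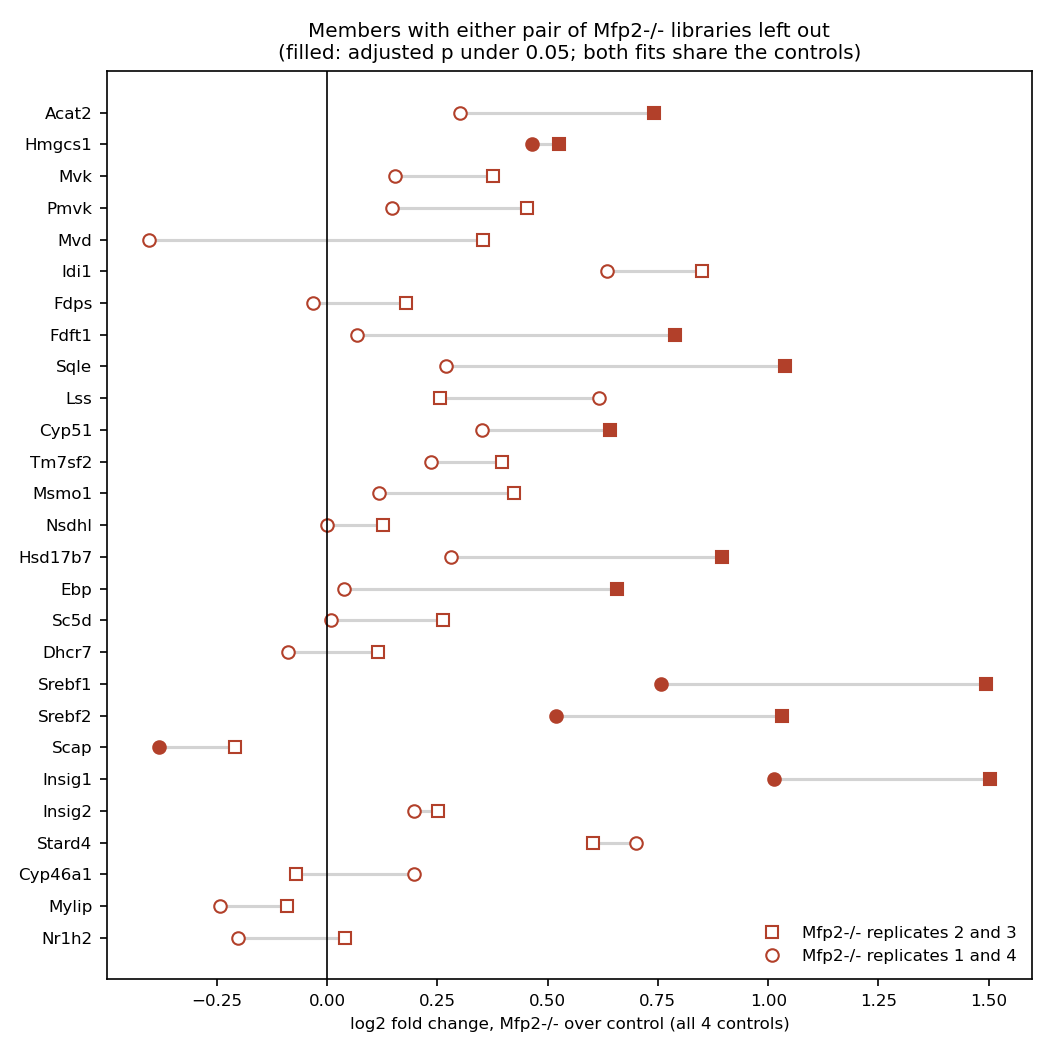
Log2 fold change of each tested member over all 4 control libraries with Mfp2-/- replicates 2 and 3 kept (squares) or Mfp2-/- replicates 1 and 4 kept (circles), filled where the adjusted p was under 0.05. Squares lie right of circles for most members, as for Sqle (1.04 and 0.27), and Hmgcs1 lies close in both (0.53 and 0.47).

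Genes that surround the pathway behaved in a mixed way. Of 13 genes of SREBP processing and sterol sensing, 1 rose and 1 fell, with a median log2 fold change of -0.13. That is 15.4% called, against 27% of all tested genes. Sp1, a general activator that acts beside the SREBPs, fell by 0.48 on the log2 scale (67.2 to 75.4 CPM in Mfp2-/-, 93.5 to 106 CPM in control libraries, edgeR adjusted p = 0.011). Pgrmc1, a sterol-binding partner of the pathway, rose by 0.41 (adjusted p = 0.042), a call lost in 6 of the 8 fits that left out 1 library. The NF-Y subunit Nfyb (-0.37) and the sterol-binding Tmem97 (0.93) missed the threshold. The isoprenoid branch, which leaves the pathway at farnesyl diphosphate to lipidate proteins and to make dolichol and ubiquinone, had a median of -0.22 over 11 genes. In this branch 9.09% of genes were called, against 27% of all tested genes. In it 1 gene fell and 0 rose, Fnta, the shared subunit of the prenyl transferases (-0.44, edgeR adjusted p = 0.031), a call lost in 6 of the 8 fits that left out 1 library (adjusted p up to 0.10), with the replicate block (0.073), without the filter on low counts (0.057) and with total counts as the scale (-0.32, adjusted p = 0.11). At an unadjusted p under 0.05 there were also Ggps1, Fntb and Dhdds, all with negative fold changes.

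Uptake and intracellular transport genes changed in both directions. Of 14 tested genes of this list 5 rose and 3 fell (57.1% called, against 27% of all tested genes). Scarb1, the receptor for high density lipoprotein, had 56.6 to 65.1 CPM in Mfp2-/- and 178 to 204 CPM in control libraries, a log2 fold change of -1.64 (edgeR adjusted p = 3.1e-06). Vldlr, a lipoprotein receptor that feeds photoreceptors with lipid, had 83.8 to 197 CPM in Mfp2-/- and 374 to 480 CPM in control libraries (-1.52, adjusted p = 0.0011). Gramd1b, which carries cholesterol from plasma membrane to endoplasmic reticulum, had 194 to 282 CPM in Mfp2-/- and 366 to 590 CPM in control libraries (-1.02, adjusted p = 0.0019). Stard5, a sterol carrier related to Stard4, went the other way with 12.4 to 15.1 CPM in Mfp2-/- and 1.82 to 3.55 CPM in control libraries (2.25, adjusted p = 0.00017).

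Targets of the SREBPs and LXRs moved both ways as well. Of 9 tested SREBP targets in fatty acid synthesis, 3 rose and 2 fell, with a median of 0.18 (55.6% called, against 27% of all tested genes). Scd2 (1.37), Scd1 (1.56) and Fads1 (1.14), which desaturate fatty acids, rose, and Me1 (-0.71), the malic enzyme that supplies NADPH, and Acaca (-0.75), the acetyl-CoA carboxylase, fell. Scd2 had 300 to 451 CPM in Mfp2-/- and 140 to 153 CPM in control libraries (edgeR adjusted p = 6e-05), and Fads1 had 84.6 to 136 CPM in Mfp2-/- and 45.7 to 53.9 CPM in control libraries (adjusted p = 0.00068). Of 9 LXR targets, which include Srebf1, Scd1 and Mylip, 5 rose and 1 fell (66.7% called), with a median of 0.72. Of the 5, Abca1 (1.23, adjusted p = 0.025) and Lpcat3 (0.68, adjusted p = 0.027) each held in only 3 of the 8 fits that left out 1 library, both being lost without control replicate 2 (adjusted p = 0.077 and 0.075) and without control replicate 3 (0.065 and 0.074). Apoe, the lipoprotein of glia and macrophages, had 1342 to 1869 CPM in Mfp2-/- and 536 to 722 CPM in control libraries (1.48, adjusted p = 5.4e-05), and the sterol exporter Abcg4 had 31.5 to 46.1 CPM in Mfp2-/- and 88.8 to 106 CPM in control libraries (-1.30, adjusted p = 0.00012). Microglia and macrophage markers rose in the same libraries (355 to 485 CPM in Mfp2-/- against 62.0 to 76.3 CPM in control), and their part in the change of Apoe was not tested. Of the oxysterol enzymes only Hsd3b7 and Cyp27a1 were expressed enough to test, and Hsd3b7 rose by 0.90 (adjusted p = 0.048), a call that held in 1 of 8 fits leaving out 1 library.

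**Figure D5:**
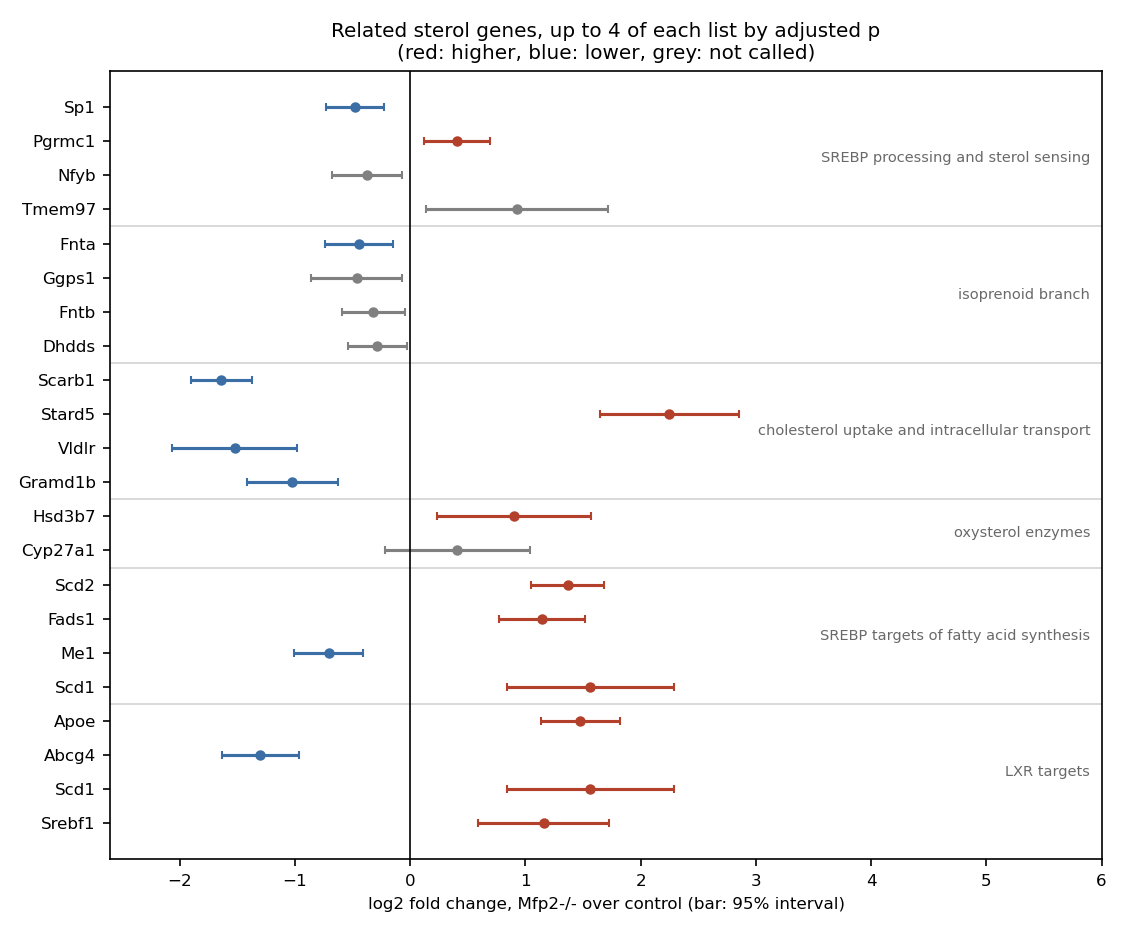
Log2 fold change, Mfp2-/- over control, with 95% intervals for up to 4 genes with the smallest adjusted p in each of 6 lists around the pathway. Changes run in both directions, Scarb1 (-1.64) and Vldlr (-1.52) being lowest and Stard5 (2.25) highest.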

How the data were processed

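Neural retina RNA of 8 mice was prepared with the QuantSeq 3′ kit and sequenced as single 50-base reads. The deposited values are raw counts of reads per gene symbol, made by the authors with FastQC 0.11.7, HISAT2, SAMtools 1.5 and HTSeq on mm10. Neither the annotation release nor whether counting was strand-aware is given in the sources used here. Reads were not collapsed by molecule. Rows that name no gene held 59.2% to 66.9% of reads and were left out. Groups were taken from the sample labels, with the Mfp2+/- mouse among the controls as in the study's methods.

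Tests were run on the counts with edgeR 4.0.16 in R 4.3.3 (filterByExpr, TMM factors, two-sided quasi-likelihood test, Benjamini-Hochberg adjustment over 12516 genes, threshold 0.05), and with limma-voom 3.58.1 and DESeq2 1.42.0 as alternatives. The code was tested on simulated data. Standard errors were derived from the fold change and its F value. Levels are CPM computed with TMM factors. Replicates were separate mice. Members were fixed by symbol, and of each surrounding list up to 4 genes with the smallest adjusted p are named. Values of every library are given for the members that passed, the regulators, and members whose libraries showed a pattern, the last chosen after values were seen. The members and lists were chosen with earlier results of these data known. Coordinates and exon overlaps are from GENCODE M21 on GRCm38 and promoters from RefSeq on GRCm38.p6. The series-wide table was not used. Some genes of the pathway are not reported here.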

Additional observations from a re-analysis of the deposited data

Results flagged for a closer look

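Single libraries stood apart in 5 of the 56 groups of 4 libraries examined by Dixon's criterion at 95% (28 members in each genotype), where chance gives about 1 in 20. In Mfp2-/- retinas, replicate 2 was the highest library for Scap at 79.3 CPM, where the others had 64.4 to 66.9 CPM. Replicate 3 was the lowest for Stard4 at 22.9 CPM, where the others had 26.4 to 26.8 CPM, and replicate 4 was the lowest for Tm7sf2 at 7.35 CPM, where the others had 9.08 to 9.20 CPM. In control retinas, replicate 3 was the highest for Fdft1 at 23.2 CPM, where the others had 14.9 to 16.3 CPM, and replicate 2 was the highest for Lss at 30.3 CPM, where the others had 21.6 to 21.8 CPM.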

How the results depend on the processing

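Of the 4 members called, Insig1, Srebf1 and Srebf2 were called in every alternative run, and Hmgcs1 in every one but the fit without control replicate 2. The number of members called was 8 with upper-quartile factors or with total counts only, which added Sqle, Cyp51, Acat2 and Stard4, where 29.5% and 29.7% of all tested genes were called. It was 10 without Mfp2-/- replicates 1 and 4, an alternative added after the data were seen, in which 5169 genes (39.5%) were called over the whole table. Leaving out 1 library at a time gave 4 to 9 called members, with 9 when Mfp2-/- replicate 1 was out (the 4 plus Idi1, Fdft1, Sqle, Cyp51 and Hsd17b7), where 27.1% of all tested genes were called. The median of the members was 0.27 to 0.46 over these fits and 0.20 without Mfp2-/- replicates 2 and 3. Upper-quartile factors and total counts moved the median of all genes to 0.12 and the share of calls that are higher to 64.2% and 65.2%, against 51.2% with TMM factors. TMM factors computed without rod and cone markers left 4 members called. Correlations of same-numbered deviations were 0.08, -0.16, 0.25 and 0.21. With so few libraries they cannot settle whether the replicate numbers pair the mice. Mfp2-/- replicates 3 and 4 correlated most with the control of their own number. Replicate 1 correlated most with control replicate 2 (0.19) and replicate 2 with control replicate 3 (0.48). With the replicate number as a block, 4 members and 2845 genes were called. The members that missed the threshold had at most 284 counts in a library. Insig1 passed with 26 to 90 counts and Srebf2 with 91 to 200. Their log2 fold changes, 1.26 and 0.79, were larger than any among the members that missed the threshold (Idi1 at most, 0.73). The part of depth and of the spread between mutants in the missed calls was not tested.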
